A study of Mus musculus with 19 samples.

Results

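The step from 8 weeks (8 w) to 9 weeks (9 w) after CAWS administration was examined in DBA/2 mice, as the mRNA levels of blood leukocytes at 9 w against those at 8 w. Its members are the 4 samples titled DBA/2 8 w and DBA/2 9 w, with 2 replicates in each group, of 18 samples in the series (19 arrays). CAWS is a water-soluble mannoprotein and glucan preparation from the yeast Candida albicans, given by intraperitoneal injection on 5 consecutive days, and 0 w is the time right after the fifth injection. All groups in the series had received CAWS, so that no group of mice without CAWS entered. The mice of both groups were males of the DBA/2 strain, 5 to 14 weeks of age, and those of the other strain were C57BL/B6 males (B6). RNA was isolated from whole blood on a filter that retains leukocytes (LeukoLOCK), labelled with Cy3 and hybridized singly to Agilent mouse arrays. Only mice that had survived were sampled at each time, so the mice of 9 w are those that outlived 8 w, and different animals were taken at the 2 times. By the study's methods each array received the cRNA of a single mouse. The labels call the replicates biological, and that of DBA/2 2 w replicate 2, which enters the shared estimate of the spread, also reads as a technical replicate. The p-values below measure only the spread between these samples.

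CAWS injection is used to induce inflammation of the coronary artery and aortic root, which is severe in DBA/2 mice. Leukocytes of the blood are a mixture: neutrophils carry antimicrobial proteins in granules, natural killer (NK) cells and cytotoxic T cells carry granzymes, and monocytes and lymphocytes respond to interferons by raising sets of interferon-stimulated genes. Type I interferons act through signal transducers of the JAK-STAT pathway and the factor IRF9, and interferon-γ, made by NK and T cells, acts in part through IRF1 on guanylate-binding proteins, immunity-related GTPases and chemokines. Platelets and red cells, which have no nucleus, bring RNA left over from their precursors. In a bulk sample a lower level of a cell type's genes may come from fewer cells of that type or from less RNA per cell, and these cannot be told apart.

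Values are normalized log2 signals: log2 of the background-subtracted signal minus the 75th percentile of the same array, so 1 unit is a factor of 2 and a value of 0 is the level of that percentile. Across the 19 arrays, 33.9 to 51.4% of spots were well above background. The DBA/2 9 w replicate 2 array stood apart with 1187 spots marked as outliers by the scanner software, against 64 to 180 on the others. The arrays lay on 6 slides scanned on 2 days, all replicates 1 on the first and all replicates 2 on the second. The DBA/2 8 w and 9 w arrays never shared a slide, and slide and week cannot be told apart here. A B6 RNA sample was hybridized to 2 arrays, 1 of them on the slide of DBA/2 9 w replicate 2. Neither lay on a slide of DBA/2 8 w. The difference of these 2 arrays, each scaled to its own percentile, had a median of 0.05 over the tested probes (SD 0.58). It does not measure the difference between the slides of 8 w and 9 w. The replicates differed by a median of 0.20 at 8 w and 0.23 at 9 w. The labels name the tissue as leukocyte and, in one protocol, peripheral blood mononuclear cells. Markers of neutrophils (26 of 28 tested), T cells (24 of 28), B cells (22 of 24) and erythroid cells (35 of 35) were well above background on all 4 arrays, and 17 of 28 hepatocyte genes were so on none.

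Of 22936 probes tested, 3993 (17.4%) changed between 8 w and 9 w at an adjusted p of 0.05 in limma, with 2445 higher (10.7%) and 1548 lower (6.75%) at 9 w. Taking 1 probe a gene, 1861 of 16522 genes were higher (11.3%) and 1243 lower (7.52%), and these shares are the background for the gene groups below. The split depends on the scaling: 61.2% of the calls were rises here, 40.6% after quantile normalization, 35.2% with the percentile taken over all probes, 17.6% in the deposited value table without scaling and 84.2% after another background correction (normexp), which moved the median of all probes from 0.09 to 0.85. Normexp was run with an offset of 50, and its changes of single genes below are not set against that median of 0.85. A gene given below as higher after normexp may thus still lie below the median of all probes. In 12843 probes (56.0%) the 2 samples of 9 w lay on one side of the 2 samples of 8 w, and this held for 3940 of the 3993 called probes. With the scan day, which is the replicate number, as a block, 3320 probes were higher and 2336 lower. The median change of all genes was 0.10.

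Falls were even between the replicates and many of the large rises were not. Among called probes, 187 of the rises and 4 of the falls had 9 w replicates more than 1 log2 unit apart, and in 160 of those 187 the higher value was that of replicate 2, the array with many outlier spots. The same 187 probes had a median difference of 0.24 between the 2 arrays of the one B6 RNA, with 126 above 0, against 0.05 for rises whose replicates lay within 0.5. With that limit of 0.5 in both groups, chosen after the data were seen, 1919 rises and 1481 falls were left. Among called probes, changes of at least 2-fold numbered 574 rises and 176 falls, of which 181 rises and 136 falls met the limit. The part of the array in the uneven rises was not tested.

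**Figure D1:**
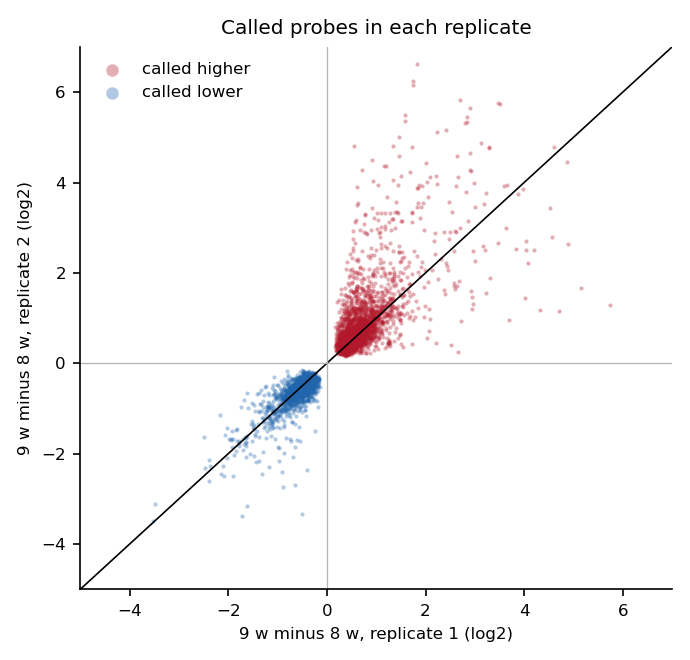
Difference between 9 w and 8 w in replicate 1 (horizontal axis, log2) and in replicate 2 (vertical axis, log2) for the called probes, 1 point each; the black line marks equal differences. The 1548 probes called lower lie near the line, whereas part of the 2445 called higher lies far above it, with larger values in replicate 2.

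Neutrophil genes were lower at 9 w. Of 12 tested genes listed for the secondary (specific) granules, 8 fell and none rose, with a median change of -0.95. Among the 8 was Adpgk (-0.75), which encodes a glucokinase and no granule protein. Of 28 genes of mature neutrophils 20 fell and none rose, with a median of -0.75. The medians were -0.96 and -0.84 for the first list and -0.73 and -0.75 for the second when replicate 1 and replicate 2 were taken alone.

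Ltf, the iron-binding granule protein lactoferrin (probe at chr9:110885185-110885244, build mm8 as in the files), measured 1.87 and 1.54 at 8 w (replicates 1 and 2) and -0.61 and -0.77 at 9 w. Camp, the cathelicidin precursor, measured 2.31 and 2.26 at 8 w and -0.07 and -0.00 at 9 w. Ltf fell 5.26-fold (log2 change -2.40, SE 0.26, adjusted p 0.000572), and a second probe gave -2.50. Camp fell 5.003-fold (-2.32, SE 0.12, adjusted p 2.3e-05). Ngp, the neutrophilic granule protein, fell by 1.83 on the log2 scale and Lcn2, the siderophore-binding lipocalin, by 1.43. Smaller falls were seen in Pglyrp1, a peptidoglycan recognition protein (-0.92), and in Cybb, the catalytic subunit of the NADPH oxidase (-0.35). Chil3, a chitinase-like protein also made by macrophages, measured 2.39 and 2.25 at 8 w and 2.86 and 2.49 at 9 w and did not pass (0.36, adjusted p 0.071).

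S100a8 and S100a9 encode the subunits of calprotectin, the most abundant protein pair of the neutrophil cytoplasm. S100a8 measured 5.67 and 5.60 at 8 w and 4.02 and 3.97 at 9 w, and S100a9 9.46 and 9.30 against 8.21 and 7.90. S100a8 fell 3.12-fold (-1.64, SE 0.07, adjusted p 1.1e-05) and S100a9 by 1.32 on the log2 scale. Mmp8, the neutrophil collagenase, measured 0.80 and 0.77 at 8 w and -0.85 and -1.05 at 9 w. It fell by 1.74, Wfdc21, a whey acidic protein family member, by 1.71, and Stfa2l1, a stefin A-like protease inhibitor, by 1.69. Other members of the stefin A cluster fell by similar amounts, Cstdc4 by 2.06, Cstdc6 by 1.89, Csta2 by 1.79 and Stfa2 by 1.78, and since these genes are close copies their probes may share signal. Stfa3, of the same cluster, did not pass: it measured 1.84 and 1.65 at 8 w and 1.75 and 2.44 at 9 w (0.35, adjusted p 0.57). Fpr2, a formyl peptide receptor, fell by 1.08 and Cxcr2, the chemokine receptor of neutrophils, by 0.74. Not every neutrophil gene fell by the test: Csf3r, the receptor of granulocyte colony-stimulating factor, changed by -0.35 (adjusted p 0.14), Il1b by -0.28 (adjusted p 0.053) and Il1r2, the decoy receptor of interleukin-1, by -0.01.

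**Figure D2:**
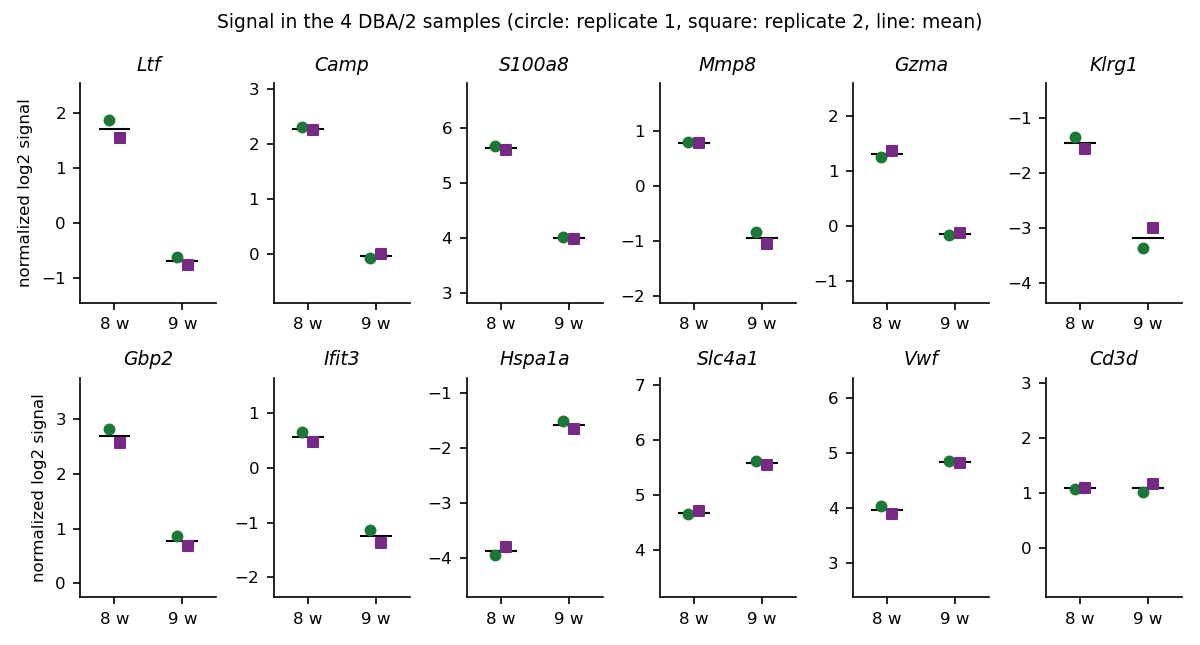
Normalized log2 signal of 12 genes in the 4 DBA/2 samples (vertical axes have equal spans; circles, replicate 1; squares, replicate 2; lines, group means of 2 samples). Ltf, Camp, S100a8, Mmp8, Gzma, Klrg1, Gbp2 and Ifit3 are lower at 9 w, Hspa1a, Slc4a1 and Vwf are higher, and the T cell receptor component Cd3d differs by 0.02.

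Genes of NK and cytotoxic cells fell as well. Of 24 tested, 15 fell and none rose, and the median change was -0.76 (-0.78 and -0.76 in replicates 1 and 2 alone). Gzma, granzyme A (probe at chr13:114216656-114216715, mm8), measured 1.26 and 1.37 at 8 w and -0.17 and -0.14 at 9 w. Klrg1, an inhibitory receptor of mature NK cells and effector T cells, measured -1.35 and -1.56 against -3.37 and -3.00. The falls were 2.76-fold for Gzma (-1.47, SE 0.09, adjusted p 4.3e-05) and 3.32-fold for Klrg1 (-1.73, SE 0.20, adjusted p 0.000711). Gzmb, granzyme B, fell by 1.23, Ncr1, the activating receptor NKp46, by 0.85, Prf1, perforin, by 0.82, Ccl5, a chemokine held ready in cytotoxic cells, by 0.71, Nkg7 by 0.63 and Klrd1, the CD94 chain of NK receptors, by 0.60. Klrk1, the activating receptor NKG2D, was well above background on both arrays of 8 w and on neither of 9 w, a fall of at least 1.57-fold (adjusted p 0.000782). After normexp, however, Klrk1 was higher by 0.81 and Prf1 by 0.085. The receptor chain Il2rb, which NK cells share with T cells, measured 0.06 and 0.01 at 8 w and 0.30 and 0.09 at 9 w (0.16, adjusted p 0.23). Of 28 T cell genes 2 fell and 2 rose, and the median was 0.00. Cd3d changed by 0.02 and Cd8b1 by 0.03. The falls were S1pr1, the receptor by which lymphocytes leave lymphoid organs (-0.77), and Dapl1, which was higher by 0.09 after normexp, and the rises were Cd5 (0.23, but -0.04 in the deposited value table without scaling) and the transcription factor gene Klf2, whose 9 w replicates measured 7.88 and 9.39.

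Interferon-responsive genes were lower at 9 w. Of 29 type I interferon-stimulated genes 18 fell and 2 rose (median -0.50), and of 31 genes of the interferon-γ pathway 14 fell and 3 rose (median -0.31). Ifit3, which binds viral RNA with other IFIT proteins, measured 0.64 and 0.46 at 8 w and -1.13 and -1.37 at 9 w. Ifi27l2a, an interferon-inducible membrane protein, measured 4.29 and 4.20 against 2.65 and 2.53. The falls were 3.49-fold for Ifit3 (-1.80, SE 0.16, adjusted p 0.000238) and 3.14-fold for Ifi27l2a (-1.65, SE 0.08, adjusted p 1.1e-05). Rtp4, a chaperone of receptors, fell by 1.37, Zbp1, a sensor of Z-form nucleic acid, by 0.80, Ifit1 by 0.76, Irf7, the factor that amplifies type I interferon production, by 0.74 and Isg15, the ubiquitin-like modifier, by 0.32. Oas1a, an oligoadenylate synthetase, fell by 0.90 with 1 of its 9 w spots left out as an outlier, but was higher by 0.56 after normexp. Rsad2, viperin, measured 6.78 and 6.73 at 8 w and 7.26 and 6.96 at 9 w and rose by 0.35 (adjusted p 0.034), but was lower by 0.33 after quantile normalization. Ifit2 rose by 0.27, and Isg20, an exonuclease, did not pass (-0.07).

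On the interferon-γ side, Gbp2, a guanylate-binding protein (probe at chr3:142575141-142575200, mm8), measured 2.81 and 2.55 at 8 w and 0.87 and 0.69 at 9 w. It fell 3.73-fold (-1.90, SE 0.12, adjusted p 5.2e-05). Cxcl9, a T cell chemokine induced by interferon-γ, was well above background on both arrays of 8 w and neither of 9 w, and was at least 1.71-fold lower (adjusted p 0.0016), but was higher by 0.64 after normexp. The guanylate-binding protein Gbp3 fell by 0.92, the immunity-related GTPases Tgtp1 by 0.91 and Irgm1 by 0.80, and the immunoproteasome subunit Psmb9 by 0.86. The ligand itself, Ifng, measured -1.86 and -2.11 at 8 w and -2.63 and -2.70 at 9 w and fell 1.60-fold (-0.68, SE 0.12, adjusted p 0.0055). After normexp Ifng was higher by 0.24, where the median of all probes was 0.85. Irf1, the factor it induces, fell by 0.45. The receptor Ifngr1 (-0.08) and the GTPase Igtp (-0.31, adjusted p 0.053) did not pass. Among the rises were the kinase Jak1 (0.31) and Socs3, the feedback inhibitor of cytokine signalling (0.32).

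Many interferon-inducible genes carry the core of the interferon-stimulated response element, which the IRF factors bind. The core was searched as GAAANNGAAA on both strands of the promoters (250 bases before to 50 after the start) of RefSeq in GRCm38.p6, and 3.99% of 27025 genes held it. Among listed genes that fell and had a promoter, 7 of 13 type I genes and 6 of 13 interferon-γ genes held it. It was held by 4 of 5 and 3 of 9 of those not called, and by 1 of 2 and 0 of 3 of those called higher. The windows of 6 genes that fell and of Rsad2, which rose, are shown 5′ to 3′ with the core in capitals, because they let the shared element be seen in genes of unequal change.
Ifit3, chr19:34583364-34583391, minus strand: ccagaagagGAAAGTGAAActtaccact
Ifit1, chr19:34640776-34640803, minus strand: ctgagactgGAAAGTGAAActgaagcct
Gbp2, chr3:142620595-142620622, minus strand: taagacagtGAAAGTGAAActaaaagag
Gbp3, chr3:142559990-142560017, minus strand: tgggaaataGAAACTGAAActgtgtcct
Tgtp1, chr11:48992305-48992332, minus strand: ccaggaatcGAAACTGAAAcctacctga
Irgm1, chr11:48871426-48871453, minus strand: caagaaataGAAACCGAAActgattctc
Rsad2, chr12:26456554-26456581, plus strand: ctgttttctGAAAATGAAAgttggacca
Ifit3, Ifit1, Gbp3 and Irgm1 also hold another match to the core, which is not marked here. In the windows shown, Ifit3, Ifit1 and Gbp2 share the same core letters, and their falls were 1.80, 0.76 and 1.90 on the log2 scale. A match describes the letters of the window and no binding was measured.

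**Figure D3:**
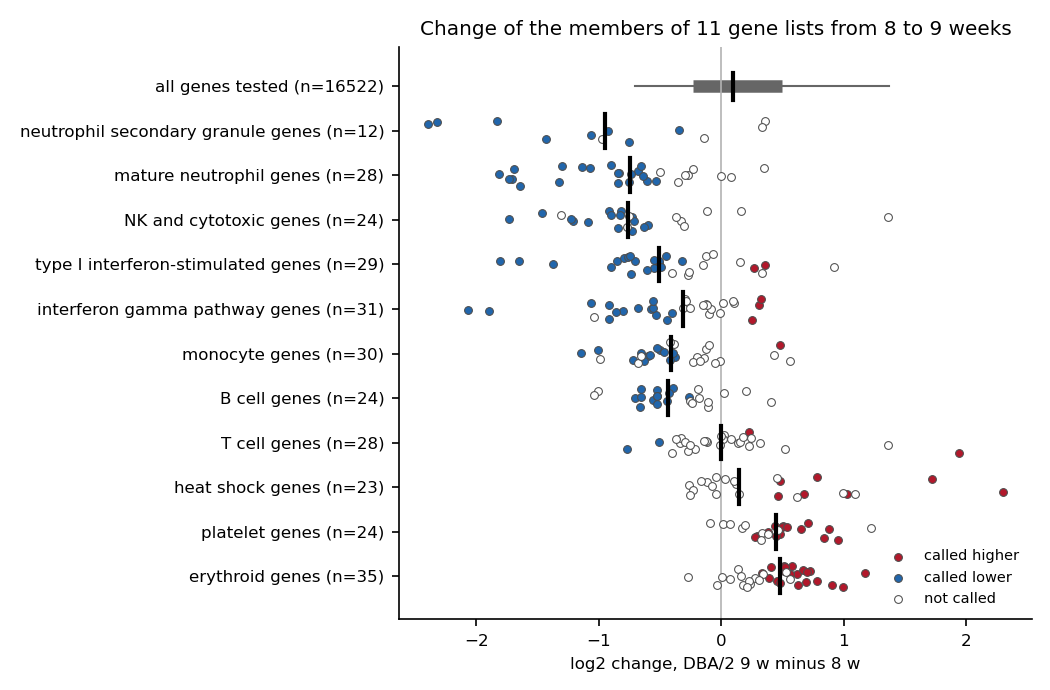
Log2 change from 8 w to 9 w (horizontal axis) of each tested member of 11 gene lists (1 point a gene; red, called higher; blue, called lower; white, not called; black bar, median of the list), beside all 16522 genes (thick bar, middle 50%; thin line, 5th to 95th percentile). Medians run from -0.95 for secondary granule genes to 0.48 for erythroid genes; after normexp the erythroid, platelet and heat shock medians lay below that of all probes by 0.45, 0.68 and 0.53.

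Monocyte genes fell in 14 of 30 and rose in 1, with a median of -0.41. Fcgr4, an activating Fc receptor of patrolling monocytes, measured 0.52 and 0.26 at 8 w and -0.62 and -0.89 at 9 w and fell by 1.15 (SE 0.16, adjusted p 0.0016). Ly6c1, from the Ly6C locus of inflammatory monocytes, fell by 1.00, S100a4 by 0.60 and Ccr2, the receptor by which monocytes leave the marrow, by 0.40. The lysozyme genes Lyz2 (-0.17) and Lyz1 (-0.05) and the growth factor receptor Csf1r (-0.38, adjusted p 0.067) did not pass, and F13a1, a coagulation factor subunit of monocytes and platelets, rose by 0.48. Of 22 tissue macrophage genes 6 fell and 1 rose. Retnla, a resistin-like protein of alternatively activated macrophages, measured -0.09 and -0.08 at 8 w and -1.36 and -1.36 at 9 w, while Clec10a, a galactose-binding lectin, measured -1.39 and -1.46 against -0.55 and -0.68. The first fell by 1.27 (adjusted p 0.000197) and the second rose by 0.81 (adjusted p 0.0014).

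B cell genes fell in 13 of 24 and rose in none, with a median of -0.43. Cxcr5, which guides B cells to follicles, measured 0.36 and 0.24 at 8 w and -0.32 and -0.40 at 9 w and fell by 0.66 (SE 0.09, adjusted p 0.0017). The MHC class II chains H2-Aa and H2-Ab1 fell by 0.66 and 0.52, Ms4a1, which encodes CD20, by 0.52 and Cd79b, a chain of the B cell receptor, by 0.40. Ighm, the heavy chain of IgM, did not pass (-0.18, adjusted p 0.24). The falls of these lists and of the neutrophil and cytotoxic lists kept their sign relative to the median of all probes under the 4 other scalings and background corrections tried for the lists, but after normexp the median of the NK and cytotoxic list was itself above 0 (0.23).

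The platelet and erythroid lists moved the other way. Of 24 platelet genes 14 rose and none fell (median 0.44), and of 35 erythroid genes 20 rose and none fell (median 0.48). These rises are relative to the scaling: after normexp both medians stayed above 0 (0.17 and 0.40) but lay below that of all probes by 0.68 and 0.45, with 1 platelet and 7 erythroid genes called higher. Vwf, von Willebrand factor (probe at chr6:125652152-125652211, mm8), measured 4.03 and 3.89 at 8 w and 4.86 and 4.83 at 9 w. Nrgn, a calmodulin-binding protein abundant in platelets, measured 4.63 and 4.50 against 5.35 and 5.46. The rises were 1.84-fold for Vwf (0.88, SE 0.09, adjusted p 0.000383) and 1.79-fold for Nrgn (0.84, SE 0.08, adjusted p 0.000369). P2ry12, the ADP receptor, rose by 0.70 and Itgb3, a chain of the fibrinogen receptor, by 0.65. The chemokine Pf4 rose by 0.45 and Gng11, a G protein subunit, by 0.30, but after quantile normalization Pf4 was lower by 0.20 and Gng11 by 0.58, and after normexp Gng11 was at -0.022. Ppbp, the other abundant chemokine of platelet granules, did not pass (0.32, adjusted p 0.058), nor did Selp, P-selectin (0.01).

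Among erythroid genes, Mkrn1, a ubiquitin ligase, measured 7.39 and 7.14 at 8 w and 8.29 and 8.58 at 9 w, and Slc4a1, the anion exchanger of the red cell membrane, 4.66 and 4.71 against 5.62 and 5.55. The rises were 1.17 for Mkrn1 (SE 0.13, adjusted p 0.00056) and 0.90 for Slc4a1 (SE 0.07, adjusted p 0.000149). Sptb, a spectrin of the membrane skeleton, rose by 0.99. Alas2, the first enzyme of heme synthesis in red cell precursors, rose by 0.52 and was lower by 0.13 after quantile normalization, and the globin gene Hbb-bt rose by 0.33 and was lower by 0.06 after normexp. Hba-a1 (0.21, adjusted p 0.20) and the transferrin receptor Tfrc (-0.27, adjusted p 0.10) did not pass. The 2 ferritin chains, which store iron, rose together, Ftl1 by 0.84 and Fth1 by 0.75, and Fth1 was lower by 0.06 after quantile normalization.

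Heat shock genes rose in 7 of 23 and fell in none, with a median of 0.14 close to that of all genes. Hspa1a, the stress-inducible HSP70 chaperone (probe at chr17:34577877-34577936, mm8), measured -3.94 and -3.80 at 8 w and -1.50 and -1.64 at 9 w. It rose 4.93-fold (2.30, SE 0.28, adjusted p 0.00086), a second probe gave 2.31, and both probes stayed higher after normexp (1.59 and 1.51) and quantile normalization (2.17 and 2.17). Its cochaperone Dnajb1 rose by 1.02 (adjusted p 0.000287), Bag3, a nucleotide exchange factor, by 0.78, Hsph1, the HSP110 chaperone, by 0.68, Ahsa1, an activator of HSP90, by 0.48 and Dnaja1, another cochaperone, by 0.46. Hsf1, the transcription factor of this response, was called higher, but its 9 w replicates measured 6.45 and 8.38 against 5.93 and 5.47 at 8 w. The constitutive chaperones Hspa8 (-0.12) and Hsp90aa1 (0.03) and the endoplasmic reticulum chaperone Hspa5 (-0.26) did not pass. Of 30 immediate early genes 4 rose and 7 fell. Fos, a subunit of AP-1, measured -3.30 and -3.44 at 8 w and -2.24 and -2.38 at 9 w and rose by 1.06 (adjusted p 0.000218), whereas Tnf was well above background on both arrays of 8 w only, with no bound above 1-fold and a higher value at 9 w after normexp (1.03). The 2 probes of Ier2 differed, 1 rising by 1.59 and the brighter one changing by -0.22 (adjusted p 0.20).

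Complement genes, which the study names from these arrays, were split: of 29 tested, 4 fell and 4 rose and the median was 0.01. C3, the central component, measured 2.59 and 2.54 at 8 w and 1.83 and 1.71 at 9 w and fell 1.74-fold (-0.80, SE 0.07, adjusted p 0.00022). Cfb, factor B of the alternative pathway, measured -1.38 and -1.57 against -2.15 and -2.28 and fell 1.67-fold (-0.74, adjusted p 0.0025), but was higher by 0.10 after normexp. The other falls were Itgam, a chain of complement receptor 3 (-0.57), and Cd55, decay-accelerating factor (-0.50), and these too were higher after normexp, by 0.23 and 0.19. The rises were Cd59a and Cd59b, inhibitors of the membrane attack complex (0.76 and 0.54), clusterin, Clu (0.93), and Mbl2, a mannose-binding lectin that was below background on all 4 arrays and is given no fold. Clu is also a platelet granule protein; it measured 3.64 and 3.56 at 8 w and 4.49 and 4.56 at 9 w. Of 45 genes the study names from the arrays 13 fell and 5 rose (median -0.25), a list chosen on these samples. In the serum amyloid and acute phase list 9 of 22 fell and 2 rose. Hp, haptoglobin, which neutrophils also store, measured 4.11 and 4.11 at 8 w and 3.45 and 3.33 at 9 w and fell by 0.72 (adjusted p 0.000486), and Il6 and Lbp were well above background on both arrays of 8 w and on neither of 9 w, with no bound above 1-fold, and were higher by 0.91 and 0.92 after normexp. Mt1, a metallothionein, rose by 0.84.

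The largest fall was that of Syngr1, synaptogyrin 1, a vesicle membrane protein (probe at chr15:79940606-79940665, mm8). It measured 1.25 and 1.29 at 8 w and -2.28 and -2.21 at 9 w, an 11.4-fold fall (-3.52, SE 0.10, adjusted p 7.7e-07). A second probe measured -0.67 and -0.93 at 8 w and -4.17 and -4.06 at 9 w. In the earlier DBA/2 samples the first probe measured -2.41 and -2.25 at 0 w, 2.38 and 2.43 at 2 w and -2.42 and -2.22 at 4 w, and in the 8 B6 samples it ranged from 1.07 to 2.21. In the first probe all 2 w and 8 w samples of DBA/2 thus lay at or above the lowest B6 sample, and all 0 w, 4 w and 9 w samples below every B6 sample. In the second probe, 8 w replicate 2 of DBA/2 (-0.93) lay below the lowest B6 sample (-0.82). Among the 22936 tested probes, the 2 of Syngr1 were the only ones in which all 2 w and 8 w samples of DBA/2 lay at least 1 log2 unit above all 0 w, 4 w and 9 w samples, and none showed the opposite. The study's methods name 2 suppliers of mice, the labels do not tie samples to them, and the part of the supplier was not tested.

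By size alone, the largest rises were in genes such as Hoxb9 (4.27), Cpeb2 (4.14), Synpo (4.00) and Nap1l3 (3.78), which encode a homeobox factor, an RNA-binding translation factor, an actin-associated protein and a nucleosome assembly protein. In these the 9 w replicates were uneven. Synpo measured 0.96 and 0.56 at 8 w and 2.71 and 6.81 at 9 w, and the 2 arrays of the one B6 RNA differed in it by 1.77. Mesp2, Tagln, Fbxl19, Tfap2e, Tmem107, 1700049J03Rik, 4921534H16Rik and a second probe of Erdr1 were likewise higher in 9 w replicate 2 than in replicate 1, with rises from 2.70 to 3.47, whereas the brighter probe of Erdr1 changed by 0.16. Large rises with replicates within 0.5 included those of Ptchd4 (1.64), Ntng1, an axon guidance protein (1.52), and Crat, carnitine acetyltransferase (1.43). Crat measured -0.27 and -0.38 at 8 w and 1.03 and 1.16 at 9 w.

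A few probes were well above background in 1 group only. At 9 w these were led by Kcnj16, at least 14.1-fold higher, Stt3b (13.3-fold), Cd207, langerin of Langerhans cells (6.81-fold), Erc1 (5.71-fold) and Pla2g5 (5.67-fold), with adjusted p from 0.0028 to 0.023. Kcnj16 measured -3.14 and -0.20 at 9 w, so the replicates differed, while Cd207 measured -2.81 and -2.62. The brighter probe of Stt3b changed by -0.08 and the other probe of Erc1 was below background on all 4 arrays. Probes well above background at 8 w only were led by 4930438A08Rik, at least 4.42-fold lower, Marf1 (2.23-fold), Tnfsf8, the ligand of CD30 (2.19-fold), Klra9, an NK receptor of the Ly49 family (2.11-fold), and Mis12, a kinetochore protein (2.01-fold), with adjusted p from 0.0035 to 0.018. After normexp all 5 were higher at 9 w, but by less than the median of all probes (0.85). The values were 0.13 for 4930438A08Rik, 0.65 for Marf1, 0.60 for Tnfsf8, 0.82 for Klra9 and 0.68 for Mis12. The brighter probe of Marf1 rose by 0.90.

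The lists were also set against the earlier weeks. The DBA/2 arrays of 0 w, 2 w, 4 w and 8 w shared 1 slide per replicate number, and the 9 w arrays lay on other slides. Slide and week therefore cannot be told apart for 9 w against any earlier week. The median signal of mature neutrophil genes in replicates 1 and 2 was -1.67 and -1.86 at 0 w, -0.19 and -0.43 at 2 w, -0.23 and -0.42 at 4 w, 0.71 and 0.62 at 8 w and -0.36 and -0.35 at 9 w. At 9 w it thus lay within the range of 2 w and 4 w, above 0 w and below 8 w. The median of the NK and cytotoxic list was -2.51 and -2.53 at 0 w, -1.61 and -1.76 at 8 w and -2.89 and -2.72 at 9 w, lower in both 9 w samples than in any other DBA/2 sample. The median of the B cell list was 0.45 and 0.40 at 0 w and -0.12 and -0.19 at 8 w, and at 9 w, with -0.50 and -0.53, it was the lowest of the time course. The median of the interferon-γ list was -0.76 and -0.76 at 0 w, 0.55 and 0.59 at 8 w and 0.19 and 0.04 at 9 w, so at 9 w it stayed above that of 0 w, 2 w and 4 w. Ifng itself was highest at 4 w (mean -1.68), with -3.48 at 0 w, -1.98 at 8 w and -2.66 at 9 w. Platelet genes had a median of 2.80 and 2.73 at 8 w and 3.35 and 3.09 at 9 w, close to 3.21 and 3.12 at 2 w.

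**Figure D4:**
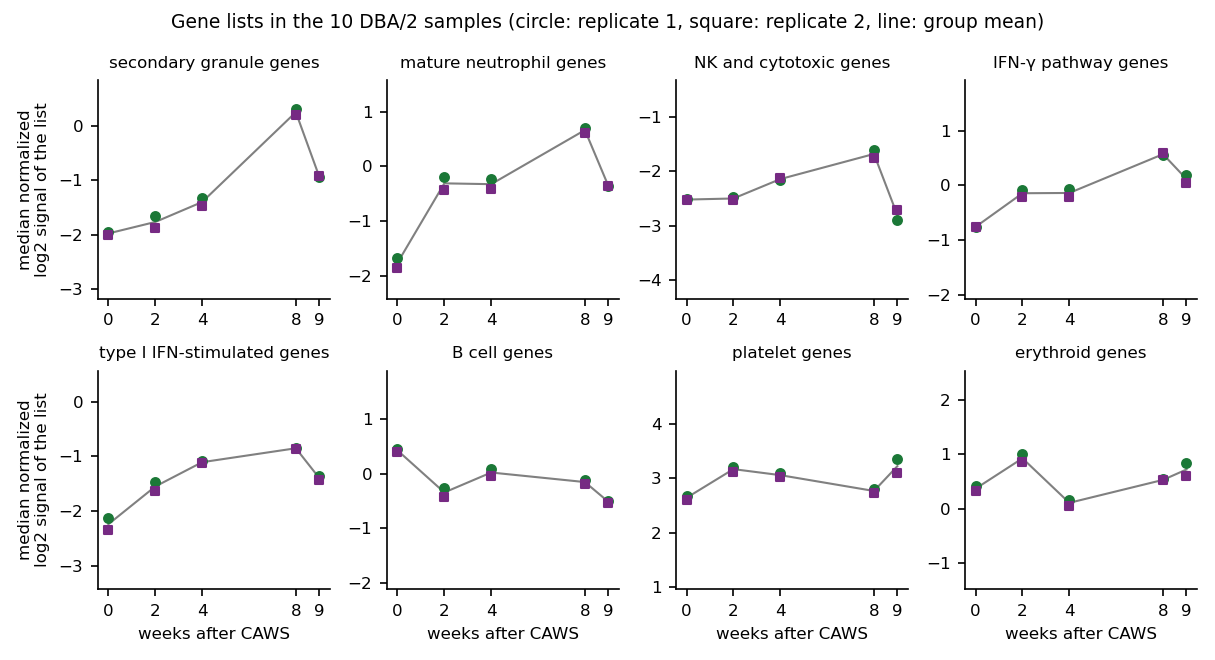
Median normalized log2 signal (vertical axes, all of equal span) of 8 gene lists in the 10 DBA/2 samples by weeks after CAWS (circles, replicate 1; squares, replicate 2; line, mean of each group). Neutrophil, NK and cytotoxic, and interferon lists are highest at 8 w and lower at 9 w. The 9 w arrays lay on other slides than all earlier DBA/2 arrays. The platelet and erythroid rises are relative to the scaling, and after normexp these lists lay below the median of all probes.

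The same step in B6 rests on 2 samples at 8 w and 1 at 9 w. The changes of the strains differed in 906 of 22926 probes (3.95%), with the DBA/2 change more positive in 597 and more negative in 309. The B6 8 w samples carried hepatocyte genes (list median -0.10 and -0.18, against -6.53 in the B6 9 w sample and -7.61 to -6.38 in the 4 DBA/2 samples), and 22 of 28 hepatocyte genes differed in change between the strains, so genes made by liver, such as C3, Cfb, Hp, Mt1 and Mbl2, are read with that beside them. The part of this signal in other genes was not tested.

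The neutrophil lists had medians below 0 in both strains, -0.75 in DBA/2 and -0.72 in B6 for mature neutrophils and -0.95 and -0.89 for secondary granules. The changes of single genes differed in 5 of 28 and 2 of 12. S100a8 fell more in DBA/2 by 0.62 (SE 0.12, adjusted p 0.021) and Camp fell less by 0.82 (SE 0.19, adjusted p 0.044). The interferon lists had medians of -0.50 and -0.31 in DBA/2 and -0.03 and -0.05 in B6, and 8 of 29 type I genes and 7 of 31 interferon-γ genes had a more negative change in DBA/2, with 0 and 1 more positive. Gbp2 was among them: it measured a mean of 2.68 at 8 w and 0.78 at 9 w in DBA/2 against -0.38 and -0.74 in B6, a difference of the changes of -1.54 (SE 0.19, adjusted p 0.0031). Ifi27l2a differed by -1.45 (adjusted p 0.000334), Ifit3 by -1.20 (adjusted p 0.034) and Gzma by -1.17 (adjusted p 0.0024).

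Platelet genes had a median of 0.44 in DBA/2 and -0.15 in B6, and 9 of 24 had a more positive change in DBA/2 and none a more negative one. Vwf differed by 0.90 (SE 0.14, adjusted p 0.0089), with means of 3.96 and 4.84 in DBA/2 and 5.20 and 5.18 in B6. The erythroid medians were 0.48 and 0.65, and 4 of 35 genes differed. Hspa1a rose in both strains, by 2.30 in DBA/2 and 2.74 in B6 (adjusted p of the difference 0.70). All these counts are for the main scaling, and after normexp 31 and 4 probes differed in all.

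**Figure D5:**
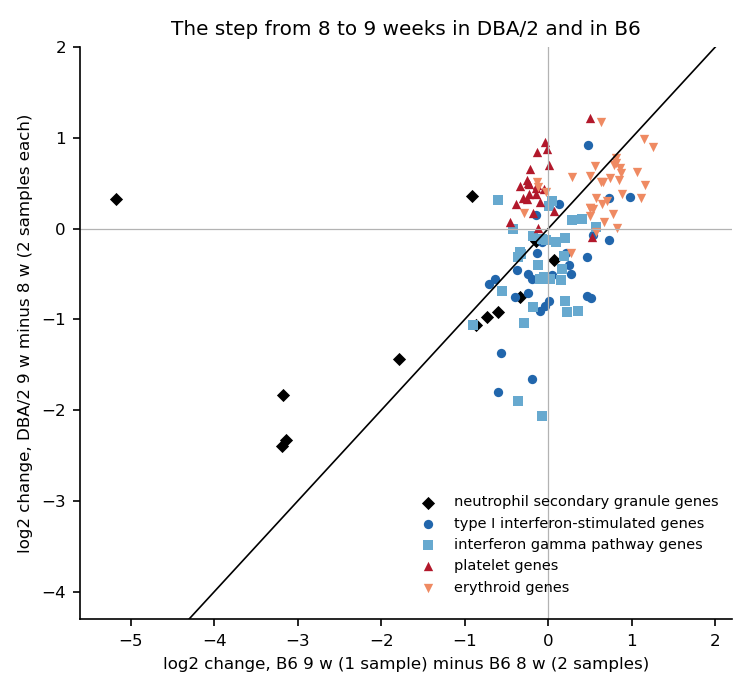
Log2 change from 8 w to 9 w in DBA/2 (vertical axis, 2 samples a group) against B6 (horizontal axis, 1 sample at 9 w and 2 at 8 w) for the tested genes of 5 lists, 1 point a gene; the black line marks equal changes. Most platelet genes lie above the line and most interferon genes below it, while most secondary granule genes are below 0 in both strains; after normexp the platelet rise in DBA/2 lay below the median of all probes.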

How the data were processed

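The values used are intensities from the deposited scanner files. Agilent Feature Extraction 9.5.3.1, per the file headers, wrote the background-subtracted processed signal of each spot of a 1-colour Cy3 array (41174 probes). The authors also deposited a value table of processed signal intensities, whose log2 entered as an alternative only. Control spots and outlier-marked spots were left out and replicate spots averaged. Each array's log2 values were set against their 75th percentile over 11536 probes, those detected well above background on each of the 19 arrays. The 2 arrays of 1 B6 RNA were averaged. A probe was tested if 2 or more of the 18 samples had it well above background (22936 probes). The test was that of limma (version 3.58.1; R version 4.3.3), with lmFit and eBayes on 10 groups that share 1 estimate of the spread, and p-values were adjusted by Benjamini-Hochberg over every probe tested, with 0.05 as the threshold. The number of arrays limits the precision. Array weights, used as an alternative only, were lowest for the DBA/2 9 w samples, at 0.54 against 0.95 to 1.28 for the others. The shared estimate may thus understate the spread at 9 w. The strains were compared through the difference of the changes in the same fit.

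Probes were named through accession or symbol in RefSeq (33102 of 41174; the rest keep the name in the file), and the brightest probe stands for a gene. An at-least fold sets the group above background against the dimmest signal well above background. Genes to name were the 12 largest rises, the 12 largest falls and the 5 largest at-least folds each way. These were taken among called probes without outlier-marked spots whose 8 w and 9 w samples did not overlap. In each of 28 gene lists the 3 strongest members and up to 4 largest changes were also named. Lists off the main results are given by counts, and some other members were added after their values were seen. Some named genes are not reported here. The members and lists were chosen with earlier results of these data known. The fit was tested on simulated data with independent noise and no slide effect. Of its 21964 probes a far smaller share was changed than the 17.4% called here, and the adjusted p depends on that share. The fit recovered 7 of 68 changes of 0.5 log2 units, 27 of 66 of 1 unit and 38 of 66 of 2 units, with 1 false call. These counts need not hold for the step itself. A gene that did not pass may still have changed. Alternatives covered the background correction, scaling, filter, floor (signals under 10), samples fitted, blocks, array weights and each sample left out. The deviations of same-numbered samples correlated at r = 0.02 between DBA/2 8 w and 9 w, so the replicate numbers were not taken as pairs. Over 28 pairs of groups r was -0.01 to 0.46, and over 0.1 in 12. Among the DBA/2 groups of 0 w, 2 w, 4 w and 8 w, which shared slides, r was 0.33 to 0.40. Between DBA/2 9 w and these groups it was 0.02 to 0.05. Between DBA/2 9 w and B6 of 0 w, 4 w and 8 w it was 0.15 to 0.35. Samples on the same slide, fitted as a random block, correlated at 0.38, and the part of the slide was not tested.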

Additional observations from a re-analysis of the deposited data

Results flagged for a closer look

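The change from 8 w to 9 w differed between DBA/2 and B6, by the test of the difference in the same fit, in 47 of the 153 probes named above, most of which were chosen for their change in DBA/2 or their list. For 4 of the 47 (Mbl2, Il6, Cxcl9 and Klra9), which were well above background on no array of at least 1 of the groups compared, no size is given. Each value below is the DBA/2 change minus the B6 change on the log2 scale. The B6 9 w group is 1 sample, and the B6 8 w samples carried hepatocyte genes that the B6 9 w sample did not; the part of either in these differences was not tested.

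Differences below 0 were found in interferon genes: Gbp2 -1.54, Ifi27l2a -1.45, Ifit1 -1.27, Tgtp1 -1.27, Ifit3 -1.20, Irf7 -1.20, Gbp3 -1.14, Irgm1 -1.01, Rtp4 -0.80, Zbp1 -0.80, Isg15 -0.78 and Psmb9 -0.68. They were also found in the cytotoxic genes Gzma (-1.17) and Ccl5 (-0.62), in the neutrophil genes Cstdc4 (-0.85), Cstdc6 (-0.64) and S100a8 (-0.62), in the monocyte genes Ly6c1 (-0.90) and S100a4 (-0.73), in the B cell gene Cxcr5 (-0.94), in the chaperone genes Dnaja1 (-1.09) and Hsph1 (-0.84) and in Syngr1 (-4.04).

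Differences above 0 were found in the platelet genes Nrgn (0.98), Vwf (0.90), Itgb3 (0.87) and P2ry12 (0.69), and in Clu (1.12), F13a1 (0.76), Cd59a (1.18) and Cd59b (0.89). In genes with liver expression the values were 2.89 for Mt1, 1.20 for C3, 0.76 for Hp and 0.75 for Cfb. The others were Chil3 (1.26), Il1r2 (1.22), Camp (0.82), Socs3 (0.93), Bag3 (0.96), Ptchd4 (1.00), Ntng1 (0.86) and Crat (0.83).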

How the results depend on the processing

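Against 2445 probes higher and 1548 lower, quantile normalization gave 1502 and 2196, the 75th percentile over all probes 1475 and 2718, the deposited values without scaling 764 and 3567, normexp 2201 and 414, no filter on dim probes 979 and 516, DBA/2 samples alone 1527 and 902, array weights 1527 and 892, and a fold of at least 2 with no test 467 lower. The 4 samples alone gave 0 and 0 in limma, with 4577 probes at an unadjusted p under 0.05. The slide as a random block gave 2458 and 1631. With the replicate number as a replicate block the counts were 3320 and 2336; the numbers follow the scan day, and were not taken as pairs because r was over 0.1 in 12 of 28 pairs of groups and not in the others. Leaving out 1 sample gave 1119 to 2982 higher and 694 to 1652 lower: 1440 and 694 without 8 w replicate 1, 1119 and 884 without 8 w replicate 2, and 768 lower without 9 w replicate 2. For the strain difference (597 more positive, 309 more negative), normexp gave 31 and 4, no filter 148 and 29, the replicate block 982 and 846, and leaving out 1 sample 317 to 955 and 128 to 438, an alternative added after the data were seen (955 more positive without 9 w replicate 1; 387 and 140 without 8 w replicate 1; 317 and 128 without 8 w replicate 2; 147 more negative without 9 w replicate 2). Without DBA/2 2 w replicate 2, also added after the data were seen, 2096 probes were higher and 1349 lower, and the strain difference gave 448 and 186. The cause of these moves was not tested.

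Among lists, normexp left 9 interferon-γ, 9 type I, 4 secondary granule, 7 B cell and 4 NK and cytotoxic genes lower and 7 erythroid and 1 platelet gene higher, and platelet genes numbered 8 after quantile normalization and 9 with the percentile over all probes. Leaving out 1 sample gave 11 to 17 type I genes (11 without 8 w replicate 1), 5 to 8 secondary granule genes (5 without 9 w replicate 2 or 8 w replicate 1) and 9 to 14 monocyte genes (9 without 8 w replicate 1).

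Of 153 named probes, 19 changed sign after normexp: Tnf to 1.03, Lbp 0.92, Il6 0.91, Klra9 0.82, Klrk1 0.81, Mis12 0.68, Marf1 0.65, Cxcl9 0.64, Tnfsf8 0.60, Oas1a 0.56, Ifng 0.24, Itgam 0.23, Cd55 0.19, 4930438A08Rik 0.13, Cfb 0.10, Dapl1 0.09, Prf1 0.085, Gng11 -0.022 and Hbb-bt -0.06. Of these values, those of Tnf, Lbp and Il6 lay above the median of all probes after normexp (0.85), and the others lay below it. After quantile normalization Gng11 was at -0.58, Rsad2 -0.33, Pf4 -0.20, Alas2 -0.13 and Fth1 -0.057. In the deposited values Cd5 was at -0.04. The mean of a gene's probes gave -0.019 for Marf1, 0.69 for Ier2 and 1.62 for Stt3b. No named probe changed sign when a sample was left out, under the blocks, the array weights or the filters.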

Other observations

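Other gene lists were counted in the same way. Of 54 cytosolic ribosomal protein genes 14 fell and 2 rose, with a median of -0.19, and of 38 oxidative phosphorylation genes 8 fell and 2 rose, with a median of -0.10. Of 35 cell cycle genes 1 fell and 2 rose (median 0.11), and of 17 circadian clock genes 1 rose (median 0.12). Glycolysis and hypoxia genes were split, with 5 rises and 5 falls among 28, as were iron and heme handling genes, with 5 and 6 among 25. Of 19 glucocorticoid-responsive genes 5 fell and 2 rose (median -0.15).

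Of the rarer cell types, basophil, mast cell and eosinophil genes fell in 4 of 19 and rose in 1 (median -0.33), dendritic cell genes fell in 1 of 12 (median 0.40), and plasma cell genes fell in 2 of 14 and rose in 1 (median -0.32). Of 6 genes listed for the primary granules, made early in neutrophil development, 2 fell and none rose (median -0.67). The 2 were Hp and Nkg7, and Nkg7 is also in the NK and cytotoxic list. Mpo (adjusted p 0.14), Prtn3 (0.34), Ctsg (0.31) and Ms4a3 (0.29) did not pass. Hepatocyte genes had a median change of 0.82, with 2 of 28 higher, 1 lower and 7 well above background on all 4 arrays, so the median rests on probes near background.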
